A study of Mus musculus with 2 samples.

Results

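The BCL2 family decides whether a cell keeps its mitochondria intact or releases cytochrome c from them and dies by apoptosis. The effectors BAX and BAK open pores in the outer mitochondrial membrane, and pro-survival proteins such as BCL2, BCL-XL and MCL1 hold them in check. BH3-only proteins (BIM, PUMA, NOXA, BAD and BID) carry death signals by binding the pro-survival proteins or, for some of them, by activating the effectors directly. In many cell types the loss of growth factors or serum raises BIM.

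The genes described here were 10 names of this family: the BH3-only genes Bcl2l11 (BIM), Pmaip1 (NOXA), Bbc3 (PUMA), Bad and Bid, the pro-survival genes Bcl2, Bcl2l1 (BCL-XL) and Mcl1, and the effector genes Bax and Bak1. A probe set, a group of short probes for the same transcript, was taken where the platform annotation gave it to a single gene. This found 29 probe sets for 9 of the 10 genes, out of 34945 probe sets for 18193 genes. Bax was not analysed here.

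The samples were primary myoblasts, the precursors of muscle fibres, isolated from newborn Sv129 mice and grown on laminin and collagen. One culture sample received Wnt3a at 100 ng/ml in DMEM with 2% horse serum for 4 hours, and the control sample had the same low-serum medium for 4 hours without Wnt3a. Wnt3a is a secreted protein that stabilises β-catenin. The question put to these arrays was which genes Wnt3a affects in myoblasts. Each condition had 1 Affymetrix array, so every value is a single measurement, no difference has a replicate check and no test was possible. A lower share of cells carrying a transcript and less of it per cell cannot be told apart in such bulk RNA.

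Values are deposited intensities, compared as log2(intensity + 1), and differences are Wnt3a minus control on that scale. Each gene was represented by its brightest probe set, and was called measured if this reached a floor of 6 (an intensity of 63) on at least 1 array. This left 11397 genes, among them all 9 members with a probe set. The floor was a chosen brightness, since no detection calls were used. The intensity of 1 probe set cannot be set against that of another, so only differences between the arrays are compared between genes. The median difference of all measured genes was -0.0057, the central 95% lay between -0.33 and 0.33, and probe sets of 1 gene had a pooled SD of 0.12. Axin2, a textbook Wnt target, was 12.2-fold higher with Wnt3a. The 42 spike-in control probe sets were all lower on the Wnt3a array, with a median difference of -0.19, so that scaling on them would add 0.19 to each difference below.

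The myoblast markers Myod1, Pax7, Myf5, Des, Cdh15, Itga7, Vcam1 and Ncam1 all reached the floor on both arrays, at 9.97 or more in the log2 values of each. They were not all level between the arrays: 3 of the 8 were past 1.2-fold, against 8.59% of measured genes. Vcam1, an adhesion molecule, was at -0.63 (lower on all 3 probe sets, from -0.63 to -0.51), Myf5, a myogenic transcription factor, at 0.49 and Des, the muscle intermediate filament desmin, at 0.32. The part of these shifts in the differences below was not tested. Of the other cell types' markers, 2 of 8 fibroblast genes (Col1a2 and Col3a1), 5 of 8 leukocyte genes, 2 of 6 endothelial genes, 3 of 4 Schwann cell genes and 3 of 6 smooth muscle genes were measured. The leukocyte markers lay at 6.99 or less and the endothelial markers at 6.16 or less, with Ptprc, Pecam1 and Cdh5 below the floor on both arrays. The summed intensity of each marker list, on the log2 scale, was 13.42 with Wnt3a and 13.63 in the control for fibroblasts, 9.06 and 9.08 for leukocytes, 7.61 and 7.85 for endothelium, 9.50 and 9.43 for Schwann cells, and 13.45 and 13.20 for smooth muscle. The part of these other cells was not tested either.

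Bcl2l11 was the member that differed most, and it was lower with Wnt3a, while Pmaip1 was higher and the other 7 measured members stayed within 1.2-fold. Of the 9 measured members 5 were higher and 4 lower, against 47.3% of all measured genes higher and 51.2% lower, and the members' median difference was 0.025. Bcl2l11 alone was past 1.5-fold, a size reached by 1.23% of measured genes in either direction and by 0.342% on the low side. Without probe sets that can match several transcripts, its brightest probe set left gave -0.50 and 0 members were past 1.5-fold. Bcl2l11 and Pmaip1 were the 2 members past 1.2-fold, a size that 8.59% of measured genes reached. Pmaip1, at 1.49-fold, lay just outside the 1.5-fold threshold, and no other member came near it. No member was past 2-fold, as were 0.316% of measured genes.

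The upstream DNA of Bcl2l11 is shown because it holds a match to a FoxO motif, and FoxO factors are known activators of BIM transcription. The 250 bases before the first annotated start were taken from RefSeq (GRCm38.p6, chr2:128125788-128126037, plus strand), with the match in capitals.
Bcl2l11 upstream: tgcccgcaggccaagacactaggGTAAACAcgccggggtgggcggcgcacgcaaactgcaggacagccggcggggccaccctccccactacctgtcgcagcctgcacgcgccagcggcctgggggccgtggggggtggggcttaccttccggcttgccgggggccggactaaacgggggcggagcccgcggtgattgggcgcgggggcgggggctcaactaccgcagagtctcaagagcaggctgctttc
The match began 227 bases before the start. The motif searched was GTAAACA, or TGTTTAC on the other strand, which 3.17% of 32851 annotated promoter windows of 250 bases held. A second annotated start of Bcl2l11 had no match in its window. Pmaip1 was left out of this search, so none of its upstream DNA was read. Among the windows read the only other match lay before an alternative start of Bbc3. Its 27-base surroundings (chr7:16310084-16310110, plus strand) are shown here to set beside the match of Bcl2l11.
Bbc3 match: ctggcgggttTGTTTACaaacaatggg
This match began 167 bases before that start. A TCF/LEF motif, the kind bound by the partners of β-catenin (CTTTGAT, or ATCAAAG on the other strand, in 3.21% of all windows), was in none of the 15 windows read for 9 members. An E-box, the motif of MYC and its partners (CACGTG, the same on both strands, in 6.02% of all windows), was before another start of Bbc3 and before Bax. These are matches of letters, not sites shown to be used, and a missing match says nothing of a factor. Windows of 1 gene can overlap.

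BIM, the product of Bcl2l11, is a BH3-only protein that binds all the pro-survival proteins and links growth factor loss to apoptosis. On the brightest Bcl2l11 probe set, 1456005_a_at, the intensity was 338 with Wnt3a and 586 in the control. On the log2 scale these were 8.41 with Wnt3a and 9.20 in the control, a difference of -0.79, or 1.73-fold lower. The Wnt3a array was the low one on this probe set, and the difference was outside the central 95% of measured genes.

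The other 4 Bcl2l11 probe sets gave the same direction. Intensities on 1435448_at were 261 with Wnt3a and 369 in the control, a difference of -0.50. On 1435449_at they were 75.1 with Wnt3a and 137 in the control, the widest gap of the gene at -0.86. The Wnt3a array was thus the lower one on both of these, which were designed from a common source sequence. On 1456006_at the intensities were 70.1 with Wnt3a and 104 in the control, a difference of -0.57. The dimmest, 1426334_a_at, had 47.4 with Wnt3a, below the floor, and 63.3 in the control, just above it, so that this probe set by itself sets almost no bound on the fold. Its measured difference was -0.41, the smallest of the gene.

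The 5 differences of Bcl2l11 averaged -0.62 ± 0.19 (SD between probe sets, which covers noise between probes on the same 2 arrays and not between cultures). The probe sets came from 3 source sequences and so are not 5 independent readings. Of 277 genes with at least 5 probe sets at the floor, 36 had all of them lower with Wnt3a and 30 had all of them higher. Bcl2l11 was 1 of 2 among the 277 with every probe set at -0.41 or lower, the other being Prrx1, a mesenchymal homeobox gene. That cutoff is the smallest Bcl2l11 difference itself. The probe set that gave it, 1426334_a_at, reached the floor only in the control, where it was the higher. Without it Bcl2l11 would have fewer than 5 probe sets at the floor, so the comparison is a description and no test. Of the 11397 measured genes 17 had a difference as low as that of Bcl2l11 or lower (0.149%, Bcl2l11 included). Among the 2127 measured genes within 0.5 of its mean brightness, the central 95% of differences lay between -0.37 and 0.34.

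**Figure D1:**
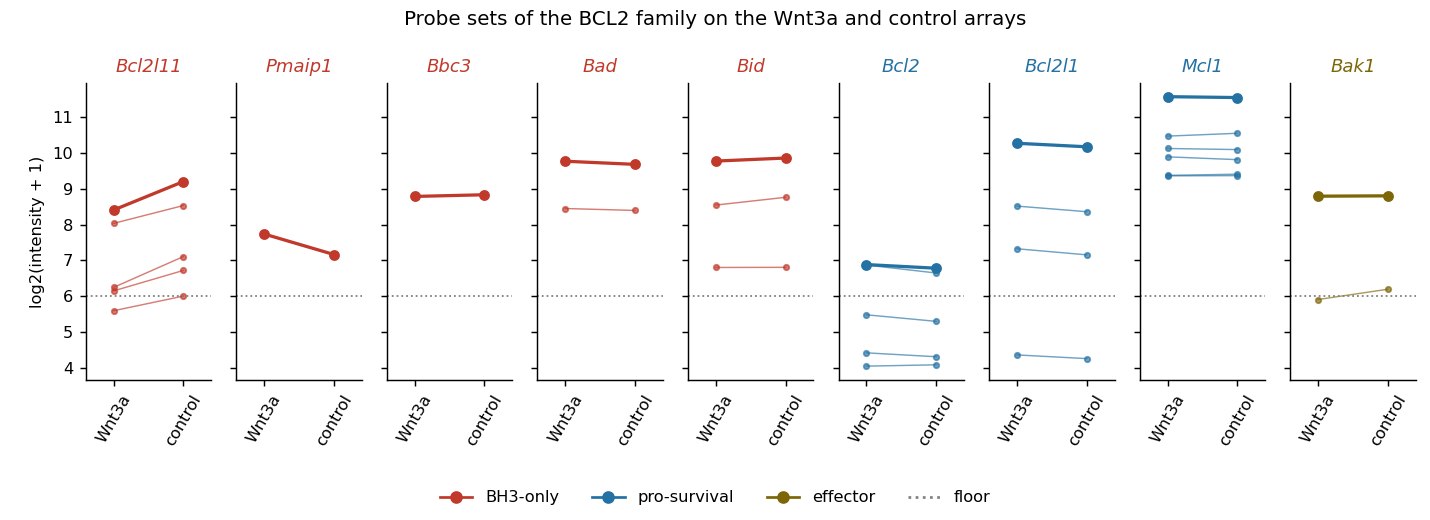
Intensity of every probe set of the 9 measured BCL2 family genes, as log2(intensity + 1), on the Wnt3a and control arrays (1 array each, no error bars). Lines join the 2 values of a probe set, the thick line is the brightest, and heights of different probe sets are not comparable. All 5 lines of Bcl2l11 are lower at Wnt3a, with differences from -0.86 to -0.41, while those of Mcl1 are nearly flat.

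Pmaip1 encodes NOXA, a BH3-only protein that mainly binds MCL1 and promotes its breakdown. Its only probe set, 1418203_at, had an intensity of 212 with Wnt3a and 142 in the control. On the log2 scale these were 7.74 and 7.16, a difference of 0.57 (1.49-fold higher with Wnt3a). The Wnt3a array was the high one, opposite to Bcl2l11, and no second probe set bears on it. A difference this high or higher was found for 106 measured genes (0.930%). Among the 1685 genes within 0.5 of its brightness the central 95% lay between -0.37 and 0.45. The gap between Pmaip1 and Bcl2l11, which adding a constant to all differences does not alter, was 1.36 on the log2 scale.

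The remaining BH3-only genes differed little. Bbc3 encodes PUMA, a p53-induced protein that binds all pro-survival members, and had intensities of 440 with Wnt3a and 454 in the control on its only probe set, a difference of -0.05. Bad, whose product is silenced by growth factor kinases through 14-3-3 proteins, had 869 with Wnt3a and 818 in the control, with differences of 0.09 and 0.05 on its 2 probe sets. Bid, which caspase-8 cuts into an active fragment, had 872 with Wnt3a and 924 in the control on the brightest probe set, a difference of -0.08. The other Bid probe sets gave -0.22 and -0.0038, so all 3 were lower with Wnt3a and none by 1.2-fold. Scaling on the spike-ins would turn Bbc3 to 0.14 and Bid to 0.11.

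The pro-survival genes were each slightly higher with Wnt3a on the brightest probe set, with a median difference of 0.098 against -0.0057 for all measured genes. Bcl2l1 encodes BCL-XL, and its brightest probe set had 1229 with Wnt3a and 1149 in the control, a difference of 0.10. Its other probe sets at the floor gave 0.16 and 0.17, and a dim one below the floor on both arrays 0.10. The Wnt3a array was therefore the higher one on all 3 Bcl2l1 probe sets at the floor, by 1.12-fold at most, inside the central 95% of measured genes. The dim one gives no measured difference. Bcl2, the founding member of the family, had 117 with Wnt3a and 109 in the control on 1457687_at (0.10) and 116 with Wnt3a and 99.4 in the control on 1422938_at (0.22). Its 3 other probe sets lay below the floor on both arrays, at intensities from 15.6 to 43.8 with Wnt3a and from 16.03 to 38.4 in the control, and give no measured difference. The first 2 are the whole evidence for Bcl2, and both were higher with Wnt3a by under 1.2-fold.

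Mcl1 encodes a short-lived pro-survival protein that turns over within the time scale of such a treatment. Its brightest probe set had 3027 with Wnt3a and 2975 in the control, a difference of 0.025. The 6 Mcl1 probe sets, all at the floor on both arrays, ran from -0.08 to 0.08, with 3 higher and 3 lower and a mean of 0.0026 ± 0.054 (SD between probe sets). The transcript was thus near equal on the 2 arrays on every probe set, which says nothing of the protein. Bak1, the effector, had 442 with Wnt3a and 445 in the control, a difference of -0.0097. Its second probe set, 1425716_s_at, had 59.2 with Wnt3a, below the floor, and 72.3 in the control, at least 1.15-fold lower against the floor. That ending marks probes that can match several transcripts.

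**Figure D2:**
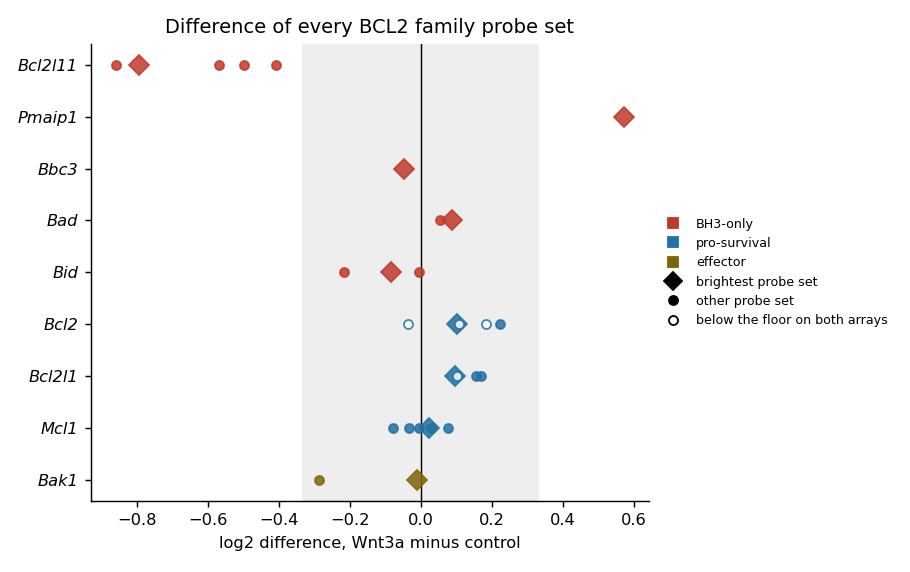
Log2 difference (Wnt3a minus control) of all 29 probe sets, by gene and coloured by role. Diamonds are the brightest probe set of each gene, open circles lie below the floor on both arrays, and the grey band is the central 95% of measured genes (-0.33 to 0.33). Only probe sets of Bcl2l11 and Pmaip1 lie outside the band.

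Counts over probe sets restate this contrast and are no separate evidence, since they come from the same genes and arrays. Of the 25 member probe sets at the floor on at least 1 array 11 were higher and 14 lower, against 46.3% and 52.2% of all such probe sets. Of these, 6 were lower by at least 1.2-fold, against 5.58% of all probe sets at the floor, and 5 of the 6 belonged to Bcl2l11. The other was the dim one of Bak1. This Bak1 probe set and 1426334_a_at of Bcl2l11 reached the floor only in the control, so both could only count as lower. Against the floor neither is bounded at 1.2-fold. Leaving out Bcl2l11 and Pmaip1, the 19 remaining probe sets at the floor ran from -0.29 to 0.22 with a median of 0.025.

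**Figure D3:**
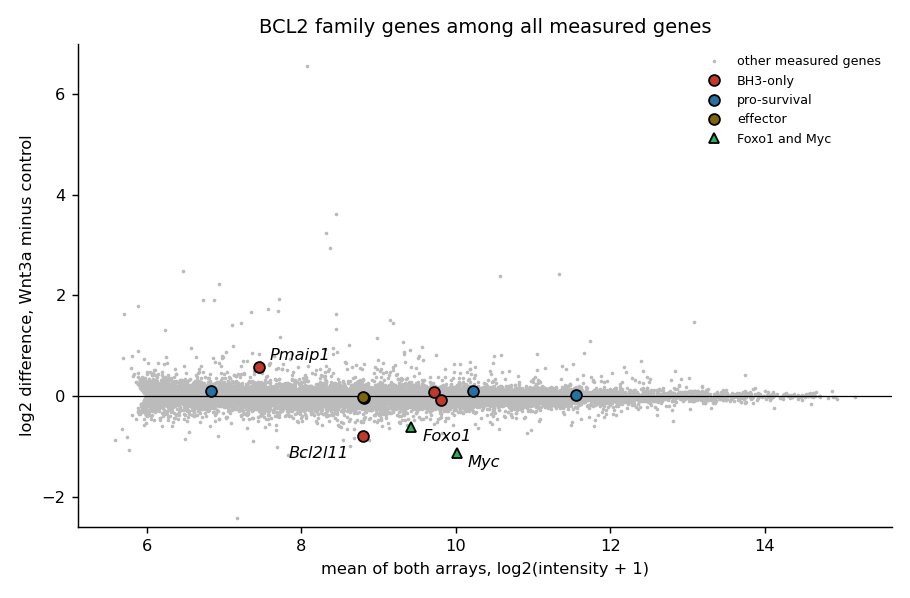
Difference (Wnt3a minus control, log2) against mean log2 brightness of both arrays for all 11397 measured genes (grey), with the 9 BCL2 family members coloured by role and Foxo1 and Myc as triangles. Bcl2l11 (-0.79) lies at the lower edge of the cloud and Pmaip1 (0.57) at the upper one, while the other 7 members lie within it.

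Of 16 other BCL2 relatives 10 were measured, 4 higher and 6 lower, with a median of -0.015. On the brightest probe set 0 of the 10 were past 1.2-fold, which is near the background of 8.59%. Bcl2l13, a mitophagy receptor, was highest at 0.17, and its second probe set gave 0.35. Bcl2l2, the pro-survival BCL-W, differed by 0.08, and its other probe sets at the floor gave up to 0.21. Bnip3, a mitophagy receptor induced by hypoxia, and Bok, an effector-like protein, were at 0.026 and 0.014. Bnip2 (-0.08), Becn1 (-0.05, with up to 0.24 on another probe set), Bik (-0.04, with 0.23 on another), Hrk (-0.03), Bcl2l12 (-0.02) and Bcl2l14 (-0.0093) completed the list. Bmf, a BH3-only relative of BIM, was below the floor on both arrays.

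All 16 genes for proteins that bind or turn over the family were measured, 6 higher and 10 lower, with a median of -0.022. On the brightest probe set 0 of the 16 were past 1.2-fold, near the background of 8.59%. Bag3, a co-chaperone that binds BCL2 proteins, was at 0.16, and Vdac1, a mitochondrial outer membrane channel, at 0.12. Usp9x, whose product removes ubiquitin from MCL1, was at -0.11 and Huwe1, whose product adds it, at 0.10. Dimmer probe sets reached -0.44 for Ywhaz and -0.34 for Ywhag, both genes of 14-3-3 proteins, and -0.32 for Usp9x.

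Downstream of the mitochondria and among the death receptors, Birc2 was the only measured gene of the lists past 1.2-fold on its brightest probe set. That is 0 of 13 apoptosome and caspase genes, 1 of 5 inhibitors of apoptosis and 0 of 8 death receptor genes. Of all measured genes 8.59% were past 1.2-fold, and counts this small cannot be told apart from that background. Of 13 measured apoptosome and caspase genes 8 were lower and 4 higher (median -0.042), and Casp8 was identical on both arrays. Aifm1, a mitochondrial flavoprotein, was at -0.25, Casp6, an executioner caspase, at -0.23, Casp2 at -0.16, and Diablo, an antagonist of the inhibitors of apoptosis, at 0.14. Among 5 measured inhibitors of apoptosis (2 higher, 3 lower, median -0.038) Birc2, the ubiquitin ligase cIAP1, was at 0.30 on its only probe set, while Birc5 was at -0.11, Xiap at -0.10 and Birc6 at -0.04. Of 8 measured death receptor genes 5 were lower and 3 higher (median -0.026). Tnfrsf10b, the mouse TRAIL receptor, was at -0.24 and -0.21 on its 2 probe sets, Traf2 at 0.19, and Tnfrsf12a and Tnfrsf1a at -0.11 each. Fas was below the floor on both arrays.

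The genes of the p53 pathway, which induces Pmaip1 and Bbc3 after DNA damage, differed by less than 1.2-fold on their brightest probe sets. Of 16 measured genes 6 were higher and 10 lower (median -0.013), and with 8.59% of all measured genes past 1.2-fold, 0 of 16 is near that background. Cdkn1a, the cell cycle inhibitor p21 and a p53 target, was at 0.05 on its brightest probe set and at 0.32 on another. The largest differences were those of Tnfrsf10b, Trp53inp1 (-0.21) and Perp (-0.21), all lower, and of Apaf1, the apoptosome scaffold, at 0.14. Pmaip1 at 0.57 stood outside the range of these genes, from -0.24 to 0.14, on the brightest probe sets.

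Among regulators known to act on BCL2 family genes some differences were larger. This list too was chosen with earlier results of these data known. Of 14 measured genes 7 were higher and 7 lower (median 0.0028). Past 1.2-fold were 4 of the 14, against 8.59% of measured genes, and past 1.5-fold 2, against 1.23%. Given how the list was chosen, these shares are a description and no test. The genes past 1.5-fold, Myc and Foxo1, were lower with Wnt3a. Myc was at 9.44 with Wnt3a and 10.58 in the control on its only probe set, a difference of -1.13. Foxo1, a forkhead factor kept out of the nucleus by AKT, was at 9.12 with Wnt3a and 9.73 in the control on its brightest probe set, a difference of -0.61. Foxo1 was also lower on both its other probe sets at the floor, at -0.67 and -0.50, while its dimmest was identical on both arrays. Foxo3 was at 0.10 and Foxo4 at -0.10 on their brightest probe sets, and other probe sets gave -0.12 for Foxo3 and 0.52 for Foxo4. Stat5a, which can activate Bcl2l1, was at 0.40, and Jun, which can activate Bcl2l11 in rat neurons, at -0.32. Another Jun probe set gave -0.18, under 1.2-fold. Foxo1, Myc and Bcl2l11 were thus lower on the same array, and with 1 array a group no relation between them could be tested.

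**Figure D4:**
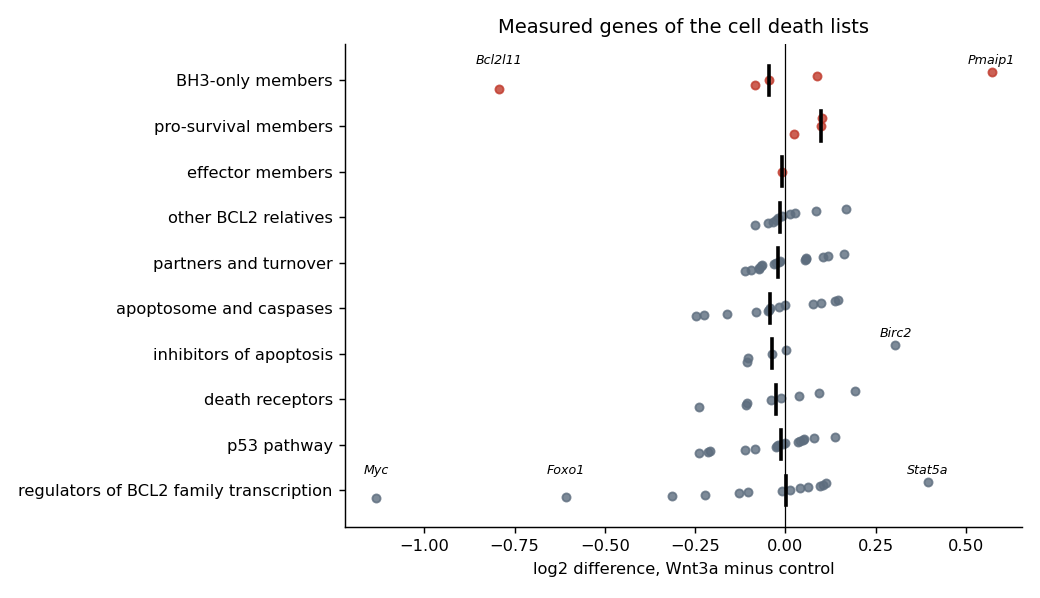
Log2 difference (Wnt3a minus control) of each measured gene on its brightest probe set, by cell death list (cell type marker lists are not plotted), with the list median as a black bar. Medians of the plotted lists lie between -0.047 and 0.098, and Myc (-1.13), Bcl2l11 (-0.79), Foxo1 (-0.61) and Pmaip1 (0.57) lie farthest from 0 among the plotted genes. Tnfrsf10b and Apaf1 stand in 2 lists each.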

How the data were processed

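Total RNA was extracted with Trizol and turned into biotinylated cRNA by an Affymetrix 3′ kit, per the labels' protocols. The authors deposited a table of intensities with a row per probe set and a column per array (45101 probe sets, 7.07 to 36604 with Wnt3a, 7.09 to 37075 in the control). RMA, affy and limma are named, without settings, per the submitters' processing notes. RMA usually gives log2 values, so the deposited intensities had been brought to a linear scale by a step not given in the sources used here, which also do not give a genome build. Detection calls were not used here. The number of arrays limits the precision.

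A pseudocount of 1 was added before log2. The 64 control probe sets were left out, and each gene took the single-gene probe set with the highest mean. Members and gene lists were chosen with earlier results of these data known. Named were all members, the measured BCL2 relatives, up to 4 genes with the largest differences of each other list, and Axin2. Bmf, Fas, Casp8, Cdkn1a, Ywhaz, Ywhag, Foxo3, Foxo4, Prrx1 and the markers with values were named after their values were seen. Upstream sequences are from RefSeq (GRCm38.p6), matched by symbol. Pmaip1 was left out of the motif search, and none is shown for it. The procedure was tested on simulated data with set differences, which checks the calculation and not the noise between cultures. Python 3.11.15, numpy 2.4.6, pandas 2.3.3, statsmodels 0.14.6 and matplotlib 3.10.9 were used.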

Additional observations from a re-analysis of the deposited data

How the results depend on the processing

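All 10 alternative settings kept Bcl2l11 lower with Wnt3a, between -0.79 and -0.50, and the 9 that measured Pmaip1 kept it higher, between 0.53 and 0.76. All of them reuse the same 2 arrays. Changing the floor or setting the median difference to 0 left the Bcl2l11 value as it was. A floor of 8 left 7 members, without Pmaip1 and Bcl2, of which 3 were higher and 1 was past 1.2-fold. Without probe sets that can match several transcripts, Bcl2l11 stood on 1435448_at (-0.50) and 0 members were past 1.5-fold. Averaged over its 5 probe sets Bcl2l11 was at -0.62. Scaling on the spike-in controls gave 8 members higher and 1 lower, 2 past 1.5-fold, 5 past 1.2-fold and a median of 0.21, with Bcl2l11 at -0.60, Foxo1 at -0.42 and Myc at -0.94. This scaling adds the same amount to the difference of every gene on the arrays. Shares of all measured genes were not counted under it, so these counts describe the scaling and not the family. Bbc3, Bid and Bak1 changed sign there, and Bak1 also with a loess trend removed (0.011) and with quantile normalization (0.0045). The spike-in scaling also made the median of every cell death list positive, since it adds the same constant to every gene. No paired analysis was possible because each group has 1 array. Dim probe sets near the floor limit Bcl2 and the faintest ones of Bcl2l11 and Bak1.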
